A study of Mus musculus with 16 samples.

Results

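The insulin-like growth factor (IGF) family in inguinal white adipose tissue (iWAT) was described from 10 of the 54532 genes in the deposited expression table, taken by gene name. They were the 2 ligands Igf1 and Igf2, the 2 receptors Igf1r and Igf2r, and the 6 binding proteins Igfbp2, Igfbp3, Igfbp4, Igfbp5, Igfbp6 and Igfbp7. All 10 had a row in the table, and 8 of them had enough reads to be tested in both transgenic lines. Igf2 and Igfbp2 stayed below the minimum of a mean of 50 reads per library and are given as reads.

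IGF1 and IGF2 are small secreted hormones that resemble insulin. Both signal for growth and survival through the tyrosine kinase receptor IGF1R, whereas IGF2R, which is also the mannose-6-phosphate receptor, takes IGF2 up for breakdown in lysosomes. Most IGF outside cells is held by secreted binding proteins, which keep it from the receptor or deliver it slowly, and proteases that cut the binding proteins release it. In adipose tissue, Igf1 is made in response to growth hormone by adipocytes, progenitors and macrophages, and IGF1R and the insulin receptor share the signalling chain of IRS proteins, PI3 kinase and AKT.

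Bulk RNA was sequenced from the iWAT of male mice that were 8 to 10 weeks old when the experiment began. The 16 libraries fell into 4 groups of 4. Has2_TG mice carried Apn-rtTA and TRE-Has2, so that the hyaluronan (HA) synthase Has2 was made in cells with an active adiponectin promoter. PH20_TG mice carried Apn-rtTA and TRE-PH20, which encodes the hyaluronidase PH20 from the gene Spam1, under the same driver. Has2_WT and PH20_WT were the littermate controls of each line, which carried Apn-rtTA alone and are labelled WT. All 16 mice, controls included, ate chow with 200 mg/kg doxycycline for 5 days, so that rtTA and doxycycline were shared by every group. The comparisons address how gene expression differed in fat tissue driven to make more HA or to digest it.

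Values are FPKM, reads scaled to gene length and library size, so that levels can be compared between genes. Log2 differences are on the scale of log2(FPKM + 0.1), which understates the change of low genes. A gene was counted as upregulated or downregulated at an unadjusted p-value under 0.05 in limma, a linear model fitted across all genes tested, and Benjamini-Hochberg adjusted p-values are given beside it. In bulk tissue, fewer cells of a type and less RNA per cell cannot be told apart. The p-values measure the spread between libraries of separate mice, and no batch is given in the labels.

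Libraries held 14421692 to 26751729 reads assigned to genes. Has2 was higher in Has2_TG than in Has2_WT by 1.98 (log2, SE 0.30, limma adjusted p = 0.0540). Reads of the transgene and the endogenous gene were summed. Has2 ran from 1.86 to 3.24 FPKM in Has2_TG. In PH20_TG, which carried no Has2 transgene, it ran from 0.0990 to 3.32 FPKM, so its level alone does not mark the Has2_TG line. Spam1 had 3 libraries with reads, all of PH20_TG, at up to 12 reads and up to 0.324 FPKM per library. The fourth, PH20_TG1, had 0 reads, which allows 3 by chance (0.0790 FPKM), and it was kept in its labelled group. Spam1 was thus close to the limit of detection, stayed under the minimum of reads and was not tested. Summed adipocyte markers (8 genes, among them Adipoq and Plin1) lay between 4249 and 9747 FPKM in every library. The libraries were of 2 kinds that the labels do not name: 9 had 202 to 295 genes with exactly 1 read and 7 had 1031 to 1685. The second kind made up 2 of the Has2_WT, 1 of the Has2_TG, 1 of the PH20_WT and 3 of the PH20_TG libraries, so differences within each kind are given for the members that passed the test.

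Igfbp4, Igfbp5, Igfbp6 and Igfbp7 were the most abundant members by mean FPKM in every group. In Has2_WT, Igfbp7 came first at 204 ± 62.5 FPKM (SD, n = 4) and Igfbp4 second at 141 ± 24.4 FPKM, with overlapping ranges. Igfbp6 at 65.0 ± 29.9 FPKM and Igfbp5 at 53.4 ± 16.8 FPKM followed, and their ranges overlapped with each other and not with that of Igfbp4. Igf1 was next at 27.5 ± 5.94 FPKM, then Igfbp3 at 8.99 ± 3.72 FPKM and Igf2r at 7.74 ± 0.756 FPKM, whose ranges overlapped. Igf1r was low at 1.03 ± 0.279 FPKM. The order was the same in PH20_WT but for Igfbp6, which came before Igfbp4 there at 178 ± 110 FPKM, with overlapping ranges. In Has2_TG, Igfbp6 came first at 236 ± 59.2 FPKM and lay above Igfbp7 in 3 of 4 libraries. In PH20_TG, Igfbp7 was again first at 286 ± 24.1 FPKM, and Igf2r at 9.55 ± 2.73 FPKM came before Igfbp3 at 7.36 ± 3.76 FPKM, with overlapping ranges.

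**Figure D1:**
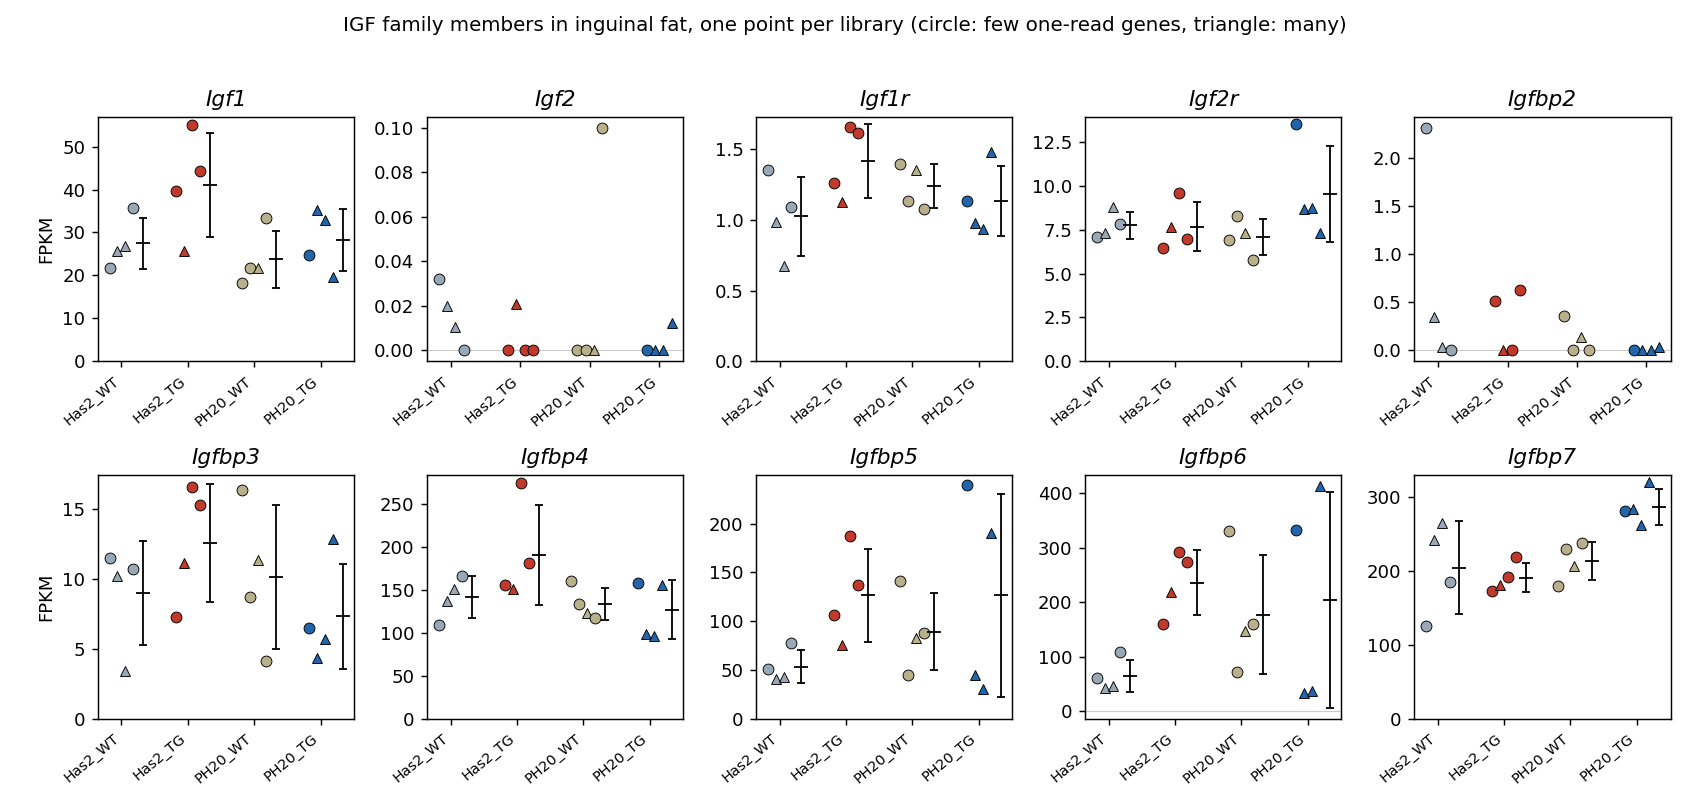
FPKM (vertical axis of each panel) of the 10 IGF family genes in the 4 groups, with 1 point per library. Circles are the 9 libraries with few one-read genes, triangles the 7 with many, and the bar is the mean ± SD of 4 libraries, left out for Igf2 and Igfbp2, which have libraries at 0. Igfbp6 is between 160 and 292 FPKM in Has2_TG and between 43.1 and 108 in Has2_WT, and Igfbp7 in PH20_TG is above every PH20_WT library.

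Of the 8 members tested, 3 were upregulated in Has2_TG and 0 were downregulated. Among all 12606 genes tested in these libraries, 10.0% were called, 6.25% as higher and 3.75% as lower. The 3 were the ligand Igf1 and the binding proteins Igfbp5 and Igfbp6, and none of them passed the adjusted threshold, which 0.103% of all genes did. The median log2 difference of the 8 members was 0.50, and that of all genes was -0.03. In PH20_TG, 1 of the 8 was upregulated, the binding protein Igfbp7, and 0 were downregulated, where 6.59% of 12532 genes were called, 3.2% as higher and 3.39% as lower. After adjustment 0 genes (0.0%) passed in PH20_TG, against 826 at the unadjusted threshold, and limma with voom weights also gave 0 after adjustment. The median of the 8 members there was 0.01, as was that of all genes.

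**Figure D2:**
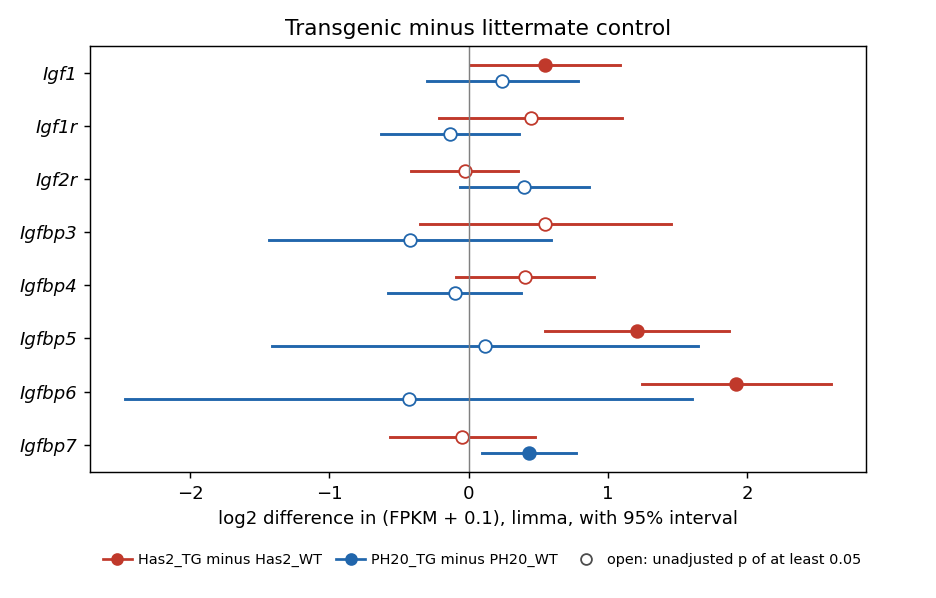
Log2 difference in FPKM + 0.1 between transgenic and control libraries (horizontal axis) for the 8 IGF family genes tested, as limma estimate with its 95% interval. Red is Has2_TG minus Has2_WT and blue is PH20_TG minus PH20_WT, and open points have an unadjusted p of at least 0.05. Igfbp6 (1.92), Igfbp5 (1.21) and Igf1 (0.55) are filled in red and Igfbp7 (0.43) in blue, and the blue intervals of Igfbp5 and Igfbp6 are the widest of the plot.

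Among the ligands, Igf1 (ENSMUSG00000020053, chromosome 10 of GRCm38, 87858265 to 87937042) was the one expressed. Its FPKM was 21.7, 25.7, 26.9 and 35.8 in Has2_WT1 to Has2_WT4 and 39.6, 25.8, 54.9 and 44.2 in Has2_TG1 to Has2_TG4. The Has2_TG libraries lay above all 4 controls except Has2_TG2, which lay among them. The log2 difference was 0.55 (SE 0.24, limma adjusted p = 0.490). In libraries with few one-read genes (3 Has2_TG, 2 Has2_WT) the difference was 0.72. In those with many (1 Has2_TG library, Has2_TG2, and 2 Has2_WT) it was -0.03. With 1 library left out the call held only without Has2_WT4 or Has2_TG2, and the other 6 fits, without Has2_WT1, Has2_WT2, Has2_WT3, Has2_TG1, Has2_TG3 or Has2_TG4, gave 0.39 to 0.55 and no call. The call held in 9 of 13 alternative fits of these libraries. It was lost with quantile normalization (0.55), with no variance trend (0.55), with the kind of library, few or many one-read genes, as a covariate (0.45) and with a covariate for the B cell score (0.34), and the adjusted p of the 13 fits ran from 0.386 to 0.764. B cell markers were downregulated in 3 of 8 genes in Has2_TG and T cell markers in 2 of 7. Summed B cell markers were 320, 258, 2.31 and 2.22 FPKM in Has2_WT1 to Has2_WT4 and 1.71 to 3.22 FPKM in Has2_TG. Only Has2_WT1 and Has2_WT2 thus lay above the Has2_TG libraries. Summed T cell markers were 125, 71.6, 4.61 and 1.84 FPKM in Has2_WT1 to Has2_WT4 and 2.45 to 5.73 FPKM in Has2_TG. Of 10 skeletal muscle markers, 0 were called in Has2_TG, but their sum split the group. It was 401, 858, 7.92 and 10.1 FPKM in Has2_TG1 to Has2_TG4, and ran from 24.8 to 114 FPKM in Has2_WT. The part of these cells in the Igf1 difference was not tested further.

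Igf1 was not called in PH20_TG, at 24.8, 35.3, 32.8 and 19.7 FPKM, against 18.2, 21.8, 21.6 and 33.4 FPKM in PH20_WT. The groups overlapped, and the difference of 0.24 (log2) had a 95% interval from -0.30 to 0.79. The antisense gene Igf1os shares bases with Igf1 and had 0 to 128 reads per library, whereas Igf1 had 2775 to 10187. Whether the counting used strand is not given in the sources used here.

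Igf2 (ENSMUSG00000048583, chromosome 7, 142650766 to 142666816), an imprinted fetal growth factor that is silenced in most mouse tissues after weaning, had next to no reads. It had 5, 2, 1 and 0 reads in Has2_WT1 to Has2_WT4, 2 in Has2_TG2, 9 in PH20_WT4, 1 in PH20_TG4 and 0 in the rest. The 10 libraries without a read allow up to 3, which is 0.0208 to 0.0333 FPKM, and this limit covers counting error only. A difference between groups was not detectable at this depth.

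Neither receptor passed the test in either line. Igf1r (ENSMUSG00000005533, chromosome 7, 67952827 to 68233668) ranged from 0.677 to 1.35 FPKM in Has2_WT and from 1.13 to 1.66 FPKM in Has2_TG. The groups overlapped, and the log2 difference was 0.45 with a 95% interval from -0.21 to 1.10. In the PH20 libraries it was -0.13, with an interval from -0.63 to 0.36. Igf2r (ENSMUSG00000023830, chromosome 17, 12682406 to 12769664) differed by -0.03 in the Has2 libraries, with an interval from -0.41 to 0.36. Its level was 6.93, 8.28, 7.31 and 5.79 FPKM in PH20_WT1 to PH20_WT4 and 13.5, 8.67, 8.73 and 7.28 FPKM in PH20_TG1 to PH20_TG4. PH20_TG1 stood above all other libraries, and PH20_TG4 lay among the controls. The difference was 0.40 (SE 0.20, limma adjusted p = 0.731), and it passed the unadjusted threshold without PH20_TG4, at 0.52. Airn, an antisense transcript from the Igf2r locus, had 31 to 144 reads per library, against 849 to 2156 for Igf2r.

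Igfbp6 (ENSMUSG00000023046, chromosome 15, 102144362 to 102149511), which binds IGF2 with a marked preference over IGF1, had the largest difference of the 8 tested members in Has2_TG. Its FPKM was 61.6, 43.1, 47.0 and 108 in Has2_WT1 to Has2_WT4 and 160, 220, 292 and 274 in Has2_TG1 to Has2_TG4. Every Has2_TG library lay above every control, as was the case for 6.19% of all genes tested, in either direction. The fitted level was 3.79 times higher, a log2 difference of 1.92 (SE 0.30, limma adjusted p = 0.0541). The difference was 1.52 in libraries with few one-read genes (3 Has2_TG, 2 Has2_WT). It was 2.29 in those with many, which rests on 1 Has2_TG library against 2 Has2_WT. The call held in all 13 alternative fits of these 8 libraries and without each library in turn. The log2 difference ranged from 1.68 to 2.20 there, and the limma adjusted p of the alternative fits ran from 0.0237 to 0.345. Of the 13, median-of-ratios scaling was bound to stay close to the main fit, since its factor was 1 in every library.

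In the PH20 libraries, Igfbp6 differed more within groups than between them. It was 331, 72.3, 147 and 160 FPKM in PH20_WT1 to PH20_WT4 and 333, 33.6, 37.0 and 414 FPKM in PH20_TG1 to PH20_TG4. PH20_TG1 (narrowly) and PH20_TG4 lay above every PH20_WT library, and PH20_TG2 and PH20_TG3 lay below all other libraries of the study's 4 groups. The difference of -0.43 had a 95% interval from -2.46 to 1.61. The Has2_WT mean of 65.0 FPKM was below the PH20_WT mean of 178 FPKM, with overlapping ranges and a log2 difference of -1.34 (SE 0.72, limma adjusted p = 0.530). None of the 8 members was called between the 2 control groups, where 10.3% of 12593 genes were.

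Igfbp5 (ENSMUSG00000026185, chromosome 1, 72857932 to 72874884), a binding protein that also sticks to extracellular matrix, was the other one upregulated in Has2_TG. Its FPKM was 51.3, 41.4, 43.2 and 77.7 in Has2_WT1 to Has2_WT4 and 106, 75.2, 187 and 137 in Has2_TG1 to Has2_TG4. Has2_WT4 lay just above Has2_TG2, and the other libraries of the groups were apart. The log2 difference was 1.21 (SE 0.29, limma adjusted p = 0.136). Igfbp5 differed by 1.15 in libraries with few one-read genes (3 Has2_TG, 2 Has2_WT) and by 0.83 in those with many (1 Has2_TG, 2 Has2_WT). In the fits of the whole line, Igfbp5 passed the unadjusted threshold in all 13 alternatives and without each library in turn.

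Igfbp5 was 141, 45.2, 82.6 and 88.4 FPKM in PH20_WT1 to PH20_WT4 and 239, 45.5, 31.2 and 190 FPKM in PH20_TG1 to PH20_TG4. The same PH20_TG libraries, 1 and 4, were the high ones as for Igfbp6. The difference of 0.12 had a 95% interval from -1.41 to 1.64. Over the 16 libraries, log2 levels of Igfbp5 and Igfbp6 had a Pearson r of 0.943 and a Spearman rho of 0.929, with r at 0.941 without the 2 libraries farthest from the Igfbp5 median. Igfbp7 ran apart from both, with r of 0.02 to Igfbp5 and -0.07 to Igfbp6.

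Summed markers of progenitors and fibroblasts (11 genes, among them Pdgfra, Dpp4, Pi16 and Dcn, none at 0 in any library) moved with these 2 binding proteins. The collagen genes Col3a1 and Col1a1 weighed most in the sum. Their means in Has2_WT were 201 and 95.4 FPKM of a mean sum of 555, against 3.98 for Pdgfra and 5.58 for Dpp4. The sums ranged from 438 to 818 FPKM in Has2_WT and from 1011 to 1761 FPKM in Has2_TG. Of the 11 genes, 8 were upregulated in Has2_TG and 0 were downregulated. The other 3 were not called: Cd55 was higher (0.29), and Icam1 (-0.46) and F3 (-0.43) were lower. In the PH20 libraries, 1 of the 11 was called, F3, which was upregulated (0.69, limma adjusted p = 0.664). By log2 difference, 5 of the 11 were higher in PH20_TG and 6 were lower. The sums of all 11 were 1462, 509, 937 and 1105 FPKM in PH20_WT1 to PH20_WT4 and 1944, 467, 637 and 1890 FPKM in PH20_TG1 to PH20_TG4. The same 5 libraries, PH20_TG1, PH20_TG4, PH20_WT1, Has2_TG3 and Has2_TG4, were the highest in Igfbp5, in Igfbp6 and in this sum. Macrophage markers also moved in Has2_TG, where 5 of 7 were upregulated, with sums of 116 to 252 FPKM in Has2_WT and 222 to 362 FPKM in Has2_TG. The part of either list in the Igfbp5 and Igfbp6 differences was not tested.

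**Figure D3:**
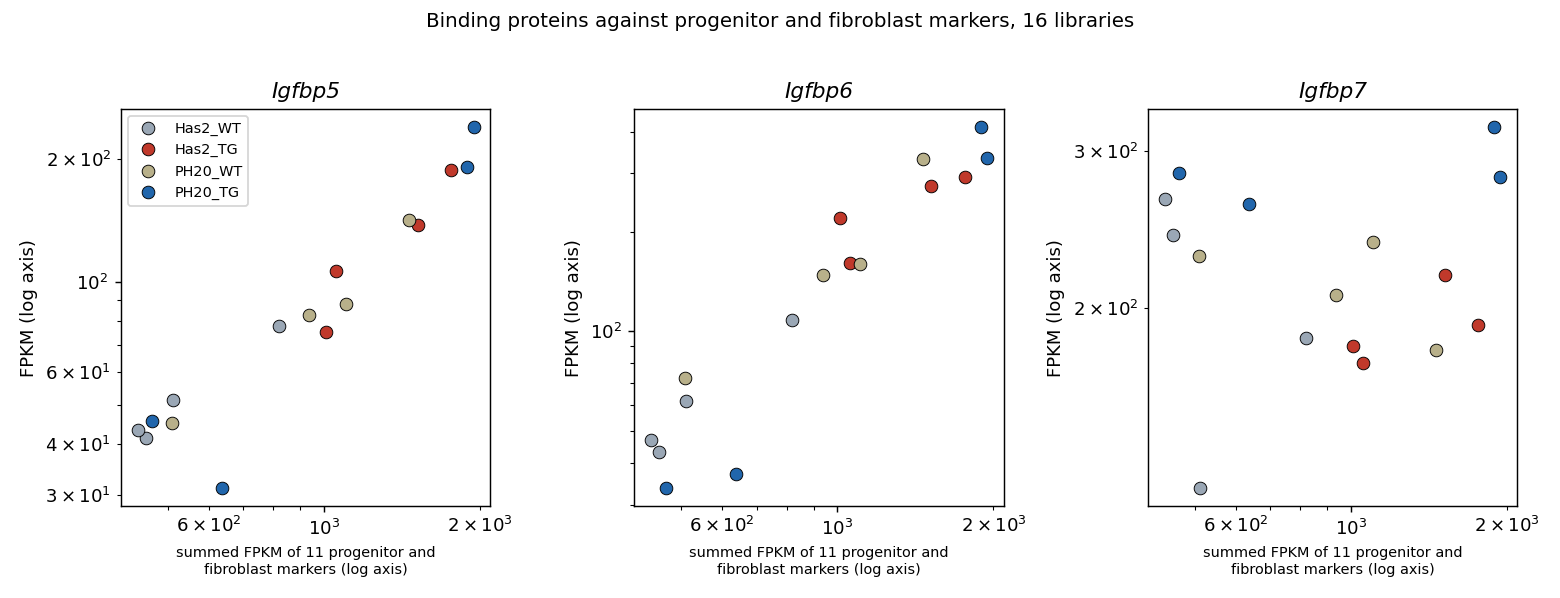
FPKM of Igfbp5, Igfbp6 and Igfbp7 (vertical log axes) against the summed FPKM of 11 progenitor and fibroblast markers (horizontal log axes), 1 point per library, coloured by group. Igfbp5 and Igfbp6 lie along a rising line that runs from Has2_WT libraries with sums from 438 FPKM to PH20_TG1 at 1944, and Igfbp7 shows no such line.

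The promoters of Igfbp5 and Igfbp6, which moved together, and of Igfbp7, which did not move with them, are shown for comparison. Each is the 250 bases before the transcription start of RefSeq on GRCm38.p6, written 5′ to 3′ on the strand of the gene: Igfbp5 at chr1:72874866-72875115 on the minus strand, Igfbp6 at chr15:102143936-102144185 on the plus strand and Igfbp7 at chr5:77408046-77408295 on the minus strand. Capitals mark matches, on either strand, to 6 motifs named below.
Igfbp5: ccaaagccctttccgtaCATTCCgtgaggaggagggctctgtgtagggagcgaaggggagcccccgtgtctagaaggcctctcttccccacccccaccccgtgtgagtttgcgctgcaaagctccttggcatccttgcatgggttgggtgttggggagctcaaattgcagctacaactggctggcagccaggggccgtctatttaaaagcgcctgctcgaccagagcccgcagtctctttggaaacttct
Igfbp6: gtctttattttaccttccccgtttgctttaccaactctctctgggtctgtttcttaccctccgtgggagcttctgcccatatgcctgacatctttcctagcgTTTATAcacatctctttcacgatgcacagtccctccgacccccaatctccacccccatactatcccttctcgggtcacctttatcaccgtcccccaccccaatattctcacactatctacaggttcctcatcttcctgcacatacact
Igfbp7: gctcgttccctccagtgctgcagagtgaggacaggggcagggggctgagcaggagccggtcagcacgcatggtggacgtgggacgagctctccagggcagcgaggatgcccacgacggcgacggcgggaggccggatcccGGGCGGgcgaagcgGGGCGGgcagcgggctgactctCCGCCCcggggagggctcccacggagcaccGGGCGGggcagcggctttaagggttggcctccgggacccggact
The RefSeq start of Igfbp6 lies 176 bases before the start of the gene in the deposited table. The bases just after it were not found in any transcript of the gene in GENCODE release M21. For Igfbp5 and Igfbp7 such bases were found, at any place in a transcript, so whether transcripts start there was not tested.

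The motifs searched were the TATA box (TATAAA), the GC box of Sp1 (GGGCGG), AP-1 (TGANTCA), TEAD (GGAATG), FoxO (TGTTTAC) and C/EBP (TTGCNNAA). Igfbp7 had 4 GC box matches, a motif that 32.7% of 32851 promoters of this length held, and 74.0% of its bases were G or C. Igfbp5 had 1 TEAD match, on the opposite strand, and 12.6% of promoters held that motif. Igfbp6 had 1 TATA box match, on the opposite strand at positions -148 to -143 from the start, and 12.4% of promoters held it. G and C made up 58.8% of the Igfbp5 window and 49.6% of that of Igfbp6, against a median of 52.4% over all promoters. Matches to AP-1 (6.75% of promoters), FoxO (3.17%) and C/EBP (9.56%) were not in these 3 windows. No match was shared by Igfbp5 and Igfbp6.

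Igfbp7 (ENSMUSG00000036256, chromosome 5, 77349240 to 77408041), a vessel-associated protein of the family that binds IGFs only weakly, was the member called in PH20_TG. Its FPKM was 179, 229, 206 and 237 in PH20_WT1 to PH20_WT4 and 280, 284, 262 and 320 in PH20_TG1 to PH20_TG4. Every PH20_TG library lay above every control, as was the case for 4.54% of all genes tested, in either direction. The log2 difference was 0.43 (SE 0.15, limma adjusted p = 0.702). Igfbp7 differed by 0.39 in libraries with few one-read genes (1 PH20_TG, 3 PH20_WT) and by 0.48 in those with many (3 PH20_TG, 1 PH20_WT). In the fit of all 8 libraries, the Igfbp7 difference missed the threshold once B cell markers entered as a covariate (0.26). It also missed it without PH20_WT3 (0.42) and without PH20_TG4 (0.38).

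Markers of other cells also differed between PH20_TG and PH20_WT, some in the direction of Igfbp7 and others against it. Of 6 smooth muscle and pericyte markers tested, 3 were upregulated in PH20_TG (Pdgfrb, Notch3 and Cspg4), and the summed list ran from 66.0 to 133 FPKM in PH20_WT and from 112 to 187 FPKM in PH20_TG. Tagln of that list, with 3 to 48 reads per PH20 library, was under the minimum. None of 7 endothelial markers was called, with sums of 137 to 248 FPKM in PH20_WT and 201 to 269 FPKM in PH20_TG. Skeletal muscle markers were downregulated in 9 of 10 genes, with sums of 244 to 1022 FPKM and 10.0 to 291 FPKM, and B cell markers in 5 of 8, with sums of 3.93 to 330 FPKM and 2.18 to 3.66 FPKM. T cell markers were downregulated in 5 of 7, with sums of 8.87 to 173 FPKM in PH20_WT and 4.06 to 9.11 FPKM in PH20_TG. The part of these cells in the Igfbp7 difference was not tested beyond the covariate fits. Polr2b lies on the opposite strand and shares bases with Igfbp7, and its own difference was -0.19 (SE 0.16, limma adjusted p = 0.815).

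In the Has2 libraries, Igfbp7 was 125, 241, 265 and 185 FPKM in Has2_WT1 to Has2_WT4 and 173, 181, 191 and 218 FPKM in Has2_TG1 to Has2_TG4. The transgenic libraries lay inside the range of the controls. The log2 difference was -0.05, with a 95% interval from -0.57 to 0.48.

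Igfbp4 (ENSMUSG00000017493, chromosome 11, 99041244 to 99054392), which inhibits IGF action until the protease PAPP-A cuts it, was not called in either line. It was 109, 138, 152 and 167 FPKM in Has2_WT1 to Has2_WT4 and 155, 151, 275 and 181 FPKM in Has2_TG1 to Has2_TG4. Has2_TG3 was the highest of all 16 libraries, and the groups overlapped, with a difference of 0.40 (95% interval from -0.09 to 0.90). In the PH20 libraries, the difference was -0.10 (interval from -0.58 to 0.38), and PH20_TG1 and PH20_TG4, at 158 and 156 FPKM, were again the higher transgenic ones.

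Igfbp3 (ENSMUSG00000020427, chromosome 11, 7206086 to 7213923), the main IGF carrier of blood plasma, was a minor binding protein in this tissue. Its FPKM was 11.5, 10.2, 3.46 and 10.8 in Has2_WT1 to Has2_WT4 and 7.31, 11.1, 16.6 and 15.3 in Has2_TG1 to Has2_TG4. The groups overlapped. The differences of 0.55 in the Has2 and -0.42 in the PH20 libraries had 95% intervals from -0.35 to 1.45 and from -1.43 to 0.60.

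Igfbp2 (ENSMUSG00000039323, chromosome 1, 72824503 to 72852474), the neighbour of Igfbp5 on the chromosome, was close to absent. It had 116 reads in Has2_WT1 (2.31 FPKM), 24 in each of Has2_TG1 and Has2_TG4, 15 in PH20_WT1, 11 in Has2_WT2, 5 in PH20_WT3 and 1 in each of Has2_WT3 and PH20_TG4. The 8 libraries at 0 allow up to 3 reads, or 0.0817 to 0.103 FPKM. It was under the minimum of reads and entered only the fit with no minimum, where it was not called in Has2_TG (-0.41, limma adjusted p = 0.920) or PH20_TG (-0.74, limma adjusted p = 0.817).

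The make-up of the binding protein RNA differed between Has2_TG and Has2_WT. Shares within a library are tied, so that more Igfbp6 lowers the shares of the others. The FPKM of Igfbp7 itself differed by -0.05 (log2) between these groups and that of Igfbp4 by 0.40. Over the 6 binding proteins, Igfbp6 made up 13.8% ± 5.45 (SD, n = 4) of the summed FPKM in Has2_WT and 31.1% ± 3.47 in Has2_TG. Igfbp7 made up 42.8% ± 9.97 in Has2_WT and 25.8% ± 4.11 in Has2_TG. For both shares the ranges of the groups were apart, with Igfbp6 at 9.09 to 19.8% against 26.6 to 34.4% and Igfbp7 at 33.7 to 51.9% against 19.9 to 28.7%. Igfbp4 gave 29.0 to 30.4% in Has2_WT and 21.9 to 28.6% in Has2_TG. Igfbp5 was at 11.4% ± 3.23 and 16.4% ± 3.28, and Igfbp3 was at most 3.19% in any library.

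In PH20_TG, the shares split the group. PH20_TG2 and PH20_TG3, the libraries low in Igfbp5 and Igfbp6, had the highest Igfbp7 shares, up to 60.9%, and PH20_TG1 and PH20_TG4 had shares of Igfbp6 of up to 37.9%. The summed FPKM of the 6 binding proteins was 473 ± 80.6 in Has2_WT, 757 ± 168 in Has2_TG, 624 ± 145 in PH20_WT and 752 ± 351 in PH20_TG (SD, n = 4 each). Every Has2_TG sum, from 603 FPKM, lay above every Has2_WT sum, up to 548 FPKM. Per FPKM of Igf1, the sum was 17.4 ± 1.69 in Has2_WT and 19.1 ± 4.08 in Has2_TG, with overlapping ranges. It ranged from 18.1 to 45.5 in PH20_WT and from 13.2 to 55.5 in PH20_TG.

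**Figure D4:**
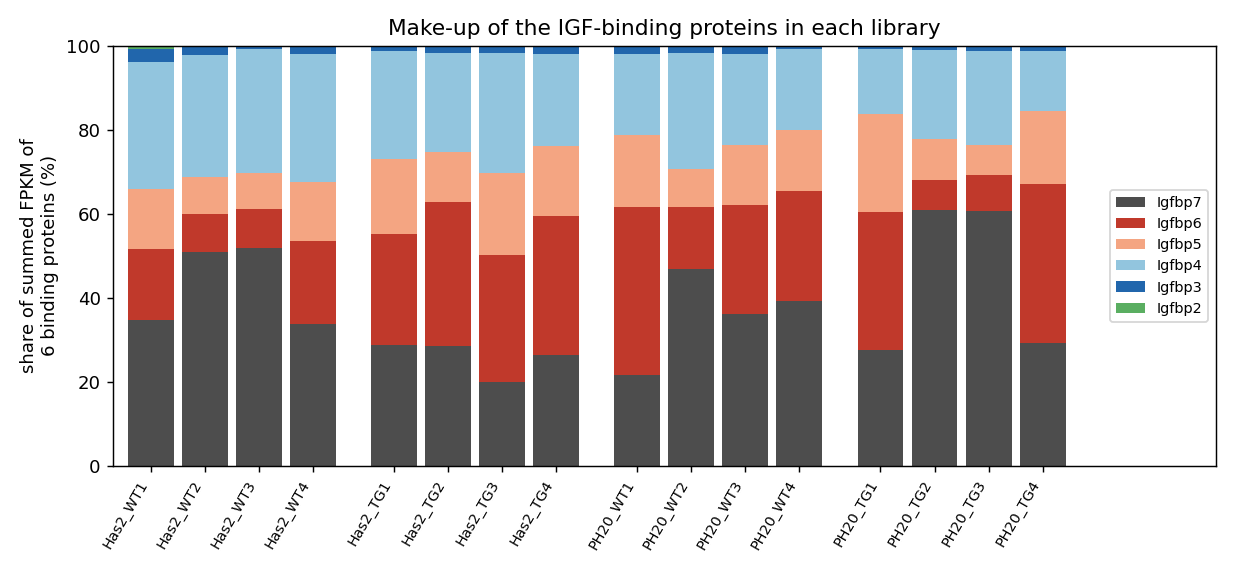
Share of each of the 6 binding proteins in their summed FPKM (vertical axis, percent) in each of the 16 libraries, stacked. The red segment, Igfbp6, is 26.6 to 34.4% in Has2_TG and 9.09 to 19.8% in Has2_WT, and in PH20_TG it is small in libraries 2 and 3 and large in libraries 1 and 4.

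A direct test of whether the Has2 and PH20 differences were unlike each other used all 16 libraries. Of the 8 members, 1 was called, Igfbp6, where 7.7% of 12593 genes were. Its difference between the effects was 2.35 (log2, SE 1.02, limma adjusted p = 0.613). It was 1.77 and no longer called with the kind of library as a covariate, an alternative added after the data were seen. The call was also lost, at 1.76 to 2.34, without Has2_WT2, Has2_WT3, Has2_TG3, Has2_TG4, PH20_WT1, PH20_WT4, PH20_TG2 or PH20_TG3. For Igfbp5 the difference between the effects was 1.09 (95% interval from -0.58 to 2.77), and for Igfbp7 it was -0.48 (interval from -1.07 to 0.11). Without Has2_WT1 the value of Igfbp7 was -0.69 and was called. Igfbp5, Igfbp3 and Igf1r were likewise each called in 1 of the 16 fits with 1 library left out.

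Around the family, 48 of 59 genes from 5 lists of the IGF system had enough reads. Of these, 4 were upregulated and 1 downregulated in Has2_TG, and 3 were upregulated and 0 downregulated in PH20_TG. The shares called were close to those of all genes tested, 10.0% in Has2_TG and 6.59% in PH20_TG. Of the other IGF binders, Igfals, the partner of the circulating IGF complex, was the one tested and was not called in either line, and Igfbp1 had 0 reads in every library. Of 6 proteases of binding proteins and their inhibitors tested, 0 were called in Has2_TG. In PH20_TG, 2 were upregulated, the membrane proteases Adam9 (0.38, SE 0.15, limma adjusted p = 0.703) and Adam12 (0.65, SE 0.29, limma adjusted p = 0.731). Both lost the call with a covariate for muscle or for B cell markers, and Adam12 lost it in most of the 13 alternative fits. Pappa, the protease that cuts IGFBP4, had 0 to 76 reads per library and was not tested.

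Of 25 genes of insulin and IGF signalling, 1 was upregulated and 1 downregulated in Has2_TG, with a median log2 difference of -0.06. Grb10, an adaptor that restrains the IGF1 and insulin receptors, rose from 4.27 ± 0.924 to 7.46 ± 0.915 FPKM (SD, n = 4). Grb10 did not overlap between the groups, as was the case for 6.19% of all genes tested. Its log2 difference was 0.81 (SE 0.20, limma adjusted p = 0.139). Mtor, the kinase downstream of AKT, fell from 7.41 ± 2.04 to 4.90 ± 0.876 FPKM, with overlapping ranges and a difference of -0.57 (SE 0.22, limma adjusted p = 0.423). Mtor was not called without Has2_WT3 (-0.40), Has2_TG2, Has2_TG3 or Has2_TG4. In PH20_TG, Irs2, a docking protein of the insulin and IGF1 receptors, was the gene called, at 12.9 ± 2.57 FPKM against 7.46 ± 2.15 FPKM. Irs2 did not overlap between the groups, as was the case for 4.54% of all genes tested. Its difference was 0.82 (SE 0.24, limma adjusted p = 0.664), and it was 0.69 and not called with a covariate for muscle markers.

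Of 8 genes of the growth hormone axis, which drives Igf1, Cish was called in Has2_TG and 0 were called in PH20_TG. Cish, an inhibitor of cytokine signalling induced by STAT5, ranged from 0.918 to 6.82 FPKM in Has2_WT and from 2.29 to 25.1 FPKM in Has2_TG, and the groups overlapped. Its difference of 1.78 (SE 0.76, limma adjusted p = 0.478) missed the threshold with all 16 libraries in one fit and was kept only without Has2_WT2 or Has2_TG2 when 1 library was left out. Of 8 neighbours of Igf2 and imprinted growth genes tested, 2 were upregulated in Has2_TG and 0 in PH20_TG. They were Cdkn1c, an imprinted inhibitor of the cell cycle (0.71, SE 0.20, limma adjusted p = 0.229), and Igf2bp2, which binds Igf2 mRNA (0.78, SE 0.34, limma adjusted p = 0.478). The call of Igf2bp2 was kept only without Has2_WT1 or Has2_TG3 when 1 library was left out.

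The genes whose log2 levels ran most like each member over the 16 libraries are given as a description, since the points share libraries, cell make-up and depth. For Igfbp6 they were Ecm1, Cd34 and Ackr3 (r of 0.986, 0.983 and 0.982). For Igfbp5 they were Fbn1, Nbl1 and Dbn1 (r of 0.980, 0.977 and 0.974). The nearest to Igfbp7 were Tinagl1, Jag2 and Bok (0.900, 0.895 and 0.878), and to Igfbp4 Pcsk6, Fads1 and Fhdc1 (0.902, 0.858 and 0.852). Igf1 ran most like Dnajb14, Lpl and Mob4 (0.875, 0.870 and 0.832), where Lpl is the lipoprotein lipase of adipocytes. Igf1r ran most like Il6st, Rab38 and Rnd3 (0.886, 0.864 and 0.853), and Igf2r like A230072C01Rik, Clcn7 and Wdr62 (0.872, 0.827 and 0.799). For Igfbp3 they were Adm, Sp140 and Igf1r itself (0.84, 0.83 and 0.83). Without the 2 libraries farthest from the member's median, r stayed at 0.966 or above for the 3 nearest genes of Igfbp5 and of Igfbp6 and fell to 0.591 for Igf2r and Clcn7.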

How the data were processed

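RNA of iWAT from 16 male mice (4 groups, 4 libraries each, 8 libraries per study) was sequenced with a TruSeq kit. The authors aligned reads to GRCm38 with STAR (version 2.7.9a in the submitters' processing notes), counted them per gene and used DESeq2 for their tests, and FPKM for each gene in each library were deposited. FPKM times gene length and library total gave whole reads in 100% of values (tolerance 0.01). The total behind FPKM was 0.886 to 1.14 times the sum of reads, so the values carry a scaling between libraries. The median-of-ratios factor of the FPKM was 1 in all 16 libraries. That scaling as an alternative could therefore change little or nothing. No pair among 120 pairs of libraries differed by sampling noise alone (smallest chi-square per degree of freedom 28.7).

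Each line was tested on its 8 libraries by limma 3.58.1 under R 4.3.3, two-sided, after log2(FPKM + 0.1). A variance trend was used, and genes averaging under 50 reads were left out. The difference between lines and between controls used all 16 libraries. A gene was called at an unadjusted p-value under 0.05, the threshold of the study's methods. P-values were adjusted over all genes tested (Benjamini-Hochberg). The script was tested on simulated data.

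The members and lists were chosen with earlier results of these data known. All members are named, up to 4 called genes per pathway list and line by p-value, and the 3 genes with the highest Pearson r to each member. Alternatives were a pseudocount of 1, no minimum or other minimums, 2 scalings, voom weights, all 16 libraries in one fit, a replicate block, no variance trend, muscle or B cell score as covariate, each library left out and, added later, the kind of library as covariate. Depth and 3 reads as the limit of a count of 0 cover counting error only. Genes on more than 1 row per symbol were left out of lists.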

Additional observations from a re-analysis of the deposited data

Results flagged for a closer look

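By Dixon's test at its critical value for 4 samples, a library stood apart from the other 3 of its group in 6 of 40 combinations of member and group. In 4 of the 6 the other 3 libraries had no read, so that any read passed and the test said nothing there. They were 1 library each of Has2_TG (0.0210 FPKM), PH20_WT (0.0999 FPKM) and PH20_TG (0.0123 FPKM) for Igf2, and PH20_TG4 (0.0380 FPKM, from 1 read) for Igfbp2. The other 2 were Has2_WT1, the highest of its group for Igfbp2 at 2.31 FPKM, and Has2_WT3, the lowest of its group for Igfbp3 at 3.46 FPKM. Chance passes this test in about 1 of 20 groups.

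The Igfbp6 differences of the lines were unlike each other by 2.35 (log2, limma, adjusted p = 0.613) in the test of the difference itself.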

How the results depend on the processing

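Of 704 log2 differences of the 8 members under alternatives or with 1 library left out, 672 stayed on their side of the threshold, 22 lost a call, 10 gained one and 0 reversed a call. Some of the 704 could not change. Median-of-ratios scaling repeated the main fit for the difference between the lines (970 genes called) and between the controls (1293). Leaving out a transgenic library could not move the estimate between the controls, only its error. The count of members called in Has2_TG was 3, or 2 where Igf1 lost its call, which it did in 4 of 13 alternative fits and 6 of 8 with 1 library left out. In PH20_TG it was 2 with all 16 libraries in one fit (Igfbp7 and Igf2r), 0 with a covariate for B cell markers, 2 with the kind of library as a covariate, and 0 to 1 with 1 library left out. For the difference between the lines it was 0 with the kind of library as a covariate and 0 to 3 with 1 library left out. Between the controls it was 0 to 1 with 1 library left out.

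The number of genes called in PH20_TG, 826, was 1305 with no minimum of reads, 1302 with the replicate block and 294 with the muscle score as a covariate. For the difference between the lines, 970 genes became 1542 with no minimum, 644 without PH20_TG2 and 638 without PH20_TG3. With reads not divided by gene length, the mean shares over 16 libraries became 39.6% for Igfbp4 (23.8% in FPKM), 31.4% for Igfbp5 (14.0%), 9.71% for Igfbp6 (23.3%) and 17.4% for Igfbp7 (37.3%). The causes were not tested.

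Libraries share replicate numbers across groups, but not every same-numbered pair deviated together, nor did every library correlate best with its own number. The correlations of same-numbered libraries were -0.003, 0.13, -0.179 and 0.0153 in the Has2 and 0.345, 0.418, -0.028 and -0.0361 in the PH20 libraries, so the numbers were not taken as pairs. The replicate block moved the members called between controls from 0 to 1 (Igfbp6, -1.34) and ended the calls of Mtor, Cish and Adam12. It changed no other call of a member or named pathway gene.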
